A study of Mus musculus with 6 samples.

Results

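The genes described here encode enzymes that oxidise, reduce or hydrolyse small molecules in the liver: aldehyde dehydrogenases (Aldh), alcohol dehydrogenases (Adh followed by a digit), aldo-keto reductases (Akr1 and Akr7), flavin-containing monooxygenases (Fmo followed by a digit) and carboxylesterases (Ces followed by a digit). They were chosen by gene symbol alone, leaving out Aldh1l1, Aldh1l2 and Akr1d1, and the rule itself uses no measured value. The 62 such genes described here are among 20659 named genes on the array. Of these 62, 55 passed the filter on dim probes and were tested together with the other genes, 14805 in all. Liver RNA came from male ICR mice, an outbred stock, that received normal saline (control, arrays 1, 2 and 3) or deproteinized extract of calf blood (DECB, arrays 4, 5 and 6) by the intragastric route. Per the labels, 24 mice formed 2 groups of 12 and each animal was given 0.08 mL per 20 g daily over 35 days. That length of dosing is not the one in the sample descriptions, where control arrays carry 1 day and DECB arrays 30 days. If the descriptions hold, the day and the treatment cannot be told apart in any difference below. The study also recorded how long mice tolerated a closed container, and whether the livers came from mice that had been through it is not labelled. Whether each array is a mouse of its own is not labelled, so the p-values below reflect the spread between these samples alone, and that spread may be technical.

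Enzymes of these families handle aldehydes, ketones, alcohols, amines, sulphides and esters that come from food, drugs, lipid breakdown and amino acid breakdown. Adh enzymes turn alcohols into aldehydes and Aldh enzymes turn aldehydes into acids, a pair of steps that clears ethanol and makes retinoic acid from retinol. Akr enzymes reduce carbonyl groups of sugars, steroids and lipid aldehydes, Fmo enzymes add oxygen to nitrogen and sulphur atoms, and Ces enzymes cut ester bonds of drugs and of stored fat. Hepatocytes are the main site of most of them.

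Levels are given as processed signal on a log2 scale on which 0 is the 75th percentile of the same array, and a difference is DECB minus control on that scale. A gene was called when its Benjamini-Hochberg adjusted p over all genes tested was under 0.05 in limma. Arrays that share a scan time in the file headers form a scan group: control 1 and DECB 6 are scan group 1, controls 2 and 3 with DECB 4 are scan group 2, and DECB 5 alone is scan group 3. The 75th percentile of the signal was 78.8 and 84.8 on scan group 1 and 422 to 551 on the other arrays, and 14922 to 29490 of 39429 probes per array were well above background. Both scan group 1 arrays lay above the other 4 arrays for 21 members and below them for 9, against 33.0% and 23.6% of all genes. All 10 hepatocyte markers were tested, and their summed signal was 1911 to 2202 times the array's 75th percentile on control arrays and 1644 to 2060 times on DECB arrays, so the groups overlapped; 9 of the 10 lay below 0 (median -0.23) and 0 were called.

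Most members of these families lay below 0, and 1 changed past the threshold: Akr1e1, an aldo-keto reductase, fell. Lower calls were thus made for 1 of the 55 members, against 38 of 14805 genes (0.257%), and higher calls for 0 members, against 0.209% of all genes (limma; at an unadjusted p under 0.05 there were 8 lower and 0 higher members, against 5.79% and 4.22% of all genes). The median difference was -0.43 over the 55 members and -0.03 over all genes tested, and 45 members lay below 0 (52.5% of all genes did). The 3 DECB arrays lay wholly below the 3 control arrays for 15 members and wholly above them for 0, against 9.4% and 7.24% of all genes. When each array was centred on its median, the median over all genes moved to -0.16 and that over the members to -0.56, so differences read relative to the bulk of genes were little altered.

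**Figure D1:**
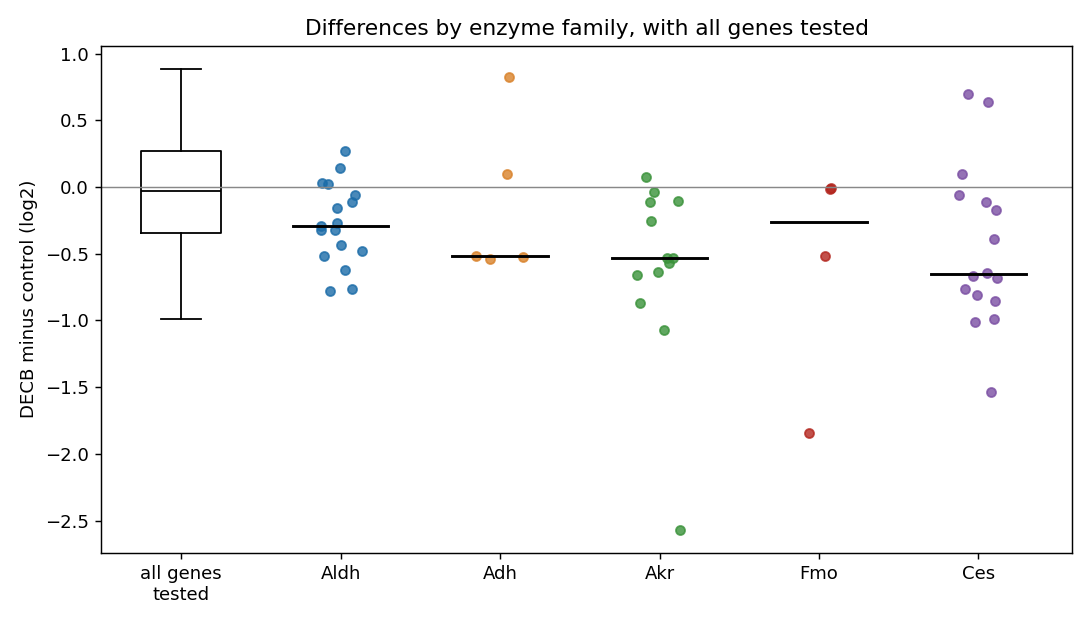
Differences (DECB minus control, log2, y axis) of the tested members by family, with a black line at each family's median; the box shows the median and quartiles of all 14805 genes tested, with whiskers at the 5th and 95th percentiles (-0.99 and 0.88). The medians of the 5 families lay between -0.27 and -0.66, and Akr1e1 at -2.57 was the lowest member.

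With the scan group as a block, 5 members were called lower and 0 higher, against 3.94% and 2.74% of all genes (6.67% in either direction): Akr1e1, Ces1g, Fmo2, Akr1b7 and Akr1c19. Since no control shares the scan group of DECB 5, that array does not bear on the blocked difference. In sentences below, a blocked value is from this fit, and blocked counts stand beside the shares of all genes given here.

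**Figure D2:**
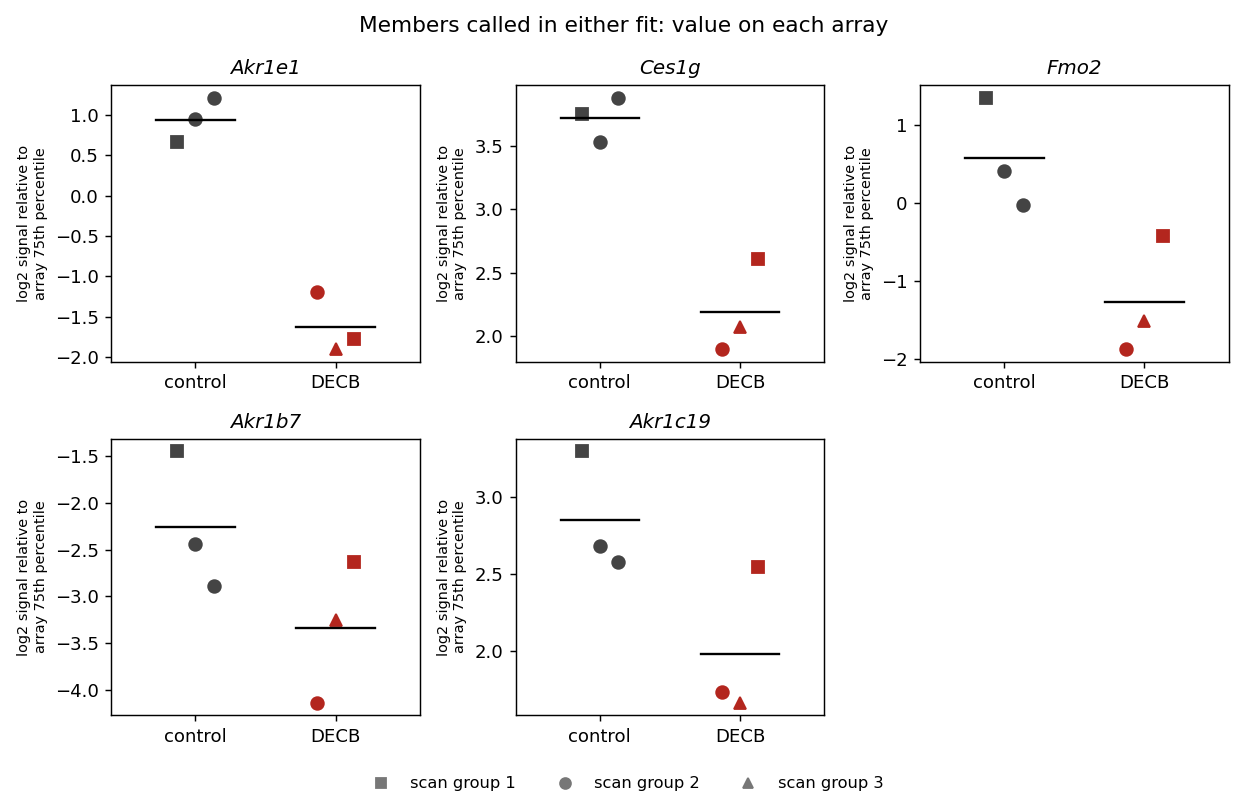
Level on each array (log2 scale, 0 at the 75th percentile, y axis) of the 5 members called in either fit; the marker shape gives the scan group and the black line is the group mean of 3 arrays. For Akr1e1 and Ces1g the groups were apart by more than the spread within either group, while Akr1b7 overlapped between DECB 6 and control 3.

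Among the aldo-keto reductases, 12 of 13 tested members lay below 0 (median -0.53) and 1 fell. Akr1e1, which reduces 1,5-anhydrofructose, a sugar made from glycogen, read 0.66, 0.95 and 1.22 on the control arrays and -1.20, -1.90 and -1.78 on the DECB arrays. Every control array lay above every DECB array by well over the spread within a group. Mean levels of Akr1e1 were 0.94 ± 0.28 in control and -1.63 ± 0.38 in DECB (SD, n = 3), and the gene fell, with a difference of -2.57 (SE 0.32, limma adjusted p = 0.0352) or 5.93-fold lower. Within scan groups 1 and 2 it differed by -2.44 and -2.28, and by -2.35 blocked (adjusted p = 0.0176). The call was lost with any 1 of the 6 arrays left out (adjusted p from 0.0579 to 0.221), without scan group 1 (0.054) and with quantile normalization (0.0509). With normexp background correction the difference was -1.59 (adjusted p = 0.149).

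The promoter of Akr1e1 is printed because this gene was called and has an entry in the RefSeq promoter table of GRCm38.p6, and that of Ces1g because it had the smallest p among the carboxylesterases. Each line gives the 250 bases before the annotated start, 5′ to 3′ on the gene's strand, and capitals mark a match to one of the motifs spelled out after the sequences, each searched on both strands.
Akr1e1, chr13:4609165-4609414, minus strand: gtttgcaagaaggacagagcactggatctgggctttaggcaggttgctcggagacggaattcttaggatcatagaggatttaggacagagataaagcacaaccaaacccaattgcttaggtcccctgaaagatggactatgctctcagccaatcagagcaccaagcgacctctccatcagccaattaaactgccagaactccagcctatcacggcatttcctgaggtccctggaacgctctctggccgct
Ces1g, chr8:93337210-93337459, minus strand: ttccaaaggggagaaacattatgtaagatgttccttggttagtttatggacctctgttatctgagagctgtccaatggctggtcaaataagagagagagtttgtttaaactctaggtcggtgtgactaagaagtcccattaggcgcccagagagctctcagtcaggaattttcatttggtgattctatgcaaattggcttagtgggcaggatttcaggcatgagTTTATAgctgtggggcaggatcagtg
None of the motifs was found in the Akr1e1 window, and the Ces1g window held 1 match, TATAAA on the opposite strand at position -26 from the start. The window of Fmo2, called like Ces1g with the scan group as a block, was also searched. It held 0 matches and is not printed. Of 62 members, 51 had an entry, with 56 promoters. TTCNNNGAA, the element bound by STAT factors, was in 10.7% of these promoters and in 7.02% of all 32851 promoters. The forkhead site GTAAACA was in 10.7% of members' promoters and 3.17% of all, and the nuclear receptor core site AGGTCA in 19.6% of members' promoters and 14.0% of all. The antioxidant response element TGACNNNGC was in 7.14% of members' promoters and 10.2% of all, and the TATA box TATAAA in 17.9% of members' promoters and 12.4% of all. A match describes letters only.

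Aldose-type reductases beside Akr1e1 differed little or unevenly. Akr1b7, a reductase of lipid aldehydes, read -1.45, -2.44 and -2.89 on the control arrays and -4.13, -3.25 and -2.63 on the DECB arrays. DECB 6 lay above control 3, so the groups overlapped, and the gene was well above background on 3 control arrays and 1 DECB array. It differed by -1.08 (SE 0.52, limma adjusted p = 0.584) and by -1.34 blocked (adjusted p = 0.0385). The unblocked difference was -0.67 without control 1, -0.68 without DECB 4 and -0.34 with normexp. Akr1b8 and Akr1b10 differed by -0.64 (SE 0.38) and -0.26 (SE 0.33), and Akr1b3, aldose reductase itself, by -0.10 (SE 0.31), with 0.02 at its second probe. Akr1a1, which makes the ascorbate precursor gulonate, differed by -0.11 (SE 0.31) and Akr7a5, which reduces succinic semialdehyde and aflatoxin dialdehyde, by 0.07 (SE 0.29).

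The steroid-type Akr1c reductases lay below 0 in all 6 tested cases (median -0.55), and 0 were called. Akr1c19 read 3.29, 2.68 and 2.57 on the control arrays and 1.73, 1.67 and 2.54 on the DECB arrays. The highest DECB array, DECB 6, fell just short of the lowest control array. Its difference was -0.87 (SE 0.37, limma adjusted p = 0.496), and -0.83 blocked (adjusted p = 0.0499). Akr1c12 read 2.71, 3.03 and 3.11 against 2.49, 2.56 and 2.20, again without overlap, and differed by -0.53 (SE 0.28, limma adjusted p = 0.623). Akr1c14, a 3-alpha-hydroxysteroid dehydrogenase, also had no overlap and differed by -0.57 (SE 0.31). Akr1c13 and Akr1c6, a 17-beta-hydroxysteroid dehydrogenase, differed by -0.66 (SE 0.39) and -0.53 (SE 0.51), with overlap. Akr1c18, the 20-alpha-hydroxysteroid dehydrogenase that inactivates progesterone, differed by -0.04 (SE 0.85). Akr1c21 and Akr1cl were not well above background on any array. On chromosome 13 in RefSeq, the numbered Akr1c genes (not Akr1cl, which lies on chromosome 1) and Akr1e1 form a run of neighbours, with Akr1e1 at one end.

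The 4 tested flavin monooxygenases all lay below 0 (median -0.27), and 0 were called (limma; 1, Fmo2, was called with the scan group as a block). Fmo2, a monooxygenase best known from lung, read 1.35, 0.40 and -0.02 on the control arrays and -1.88, -1.51 and -0.42 on the DECB arrays. The groups did not overlap, and in each the scan group 1 array was the highest. Its difference was -1.85 (SE 0.51, limma adjusted p = 0.232), with -1.94 and an adjusted p of 0.0231 blocked. Fmo1, a broad drug-oxidising member, read 4.09, 4.04 and 3.95 against 3.24, 3.62 and 3.67. Its groups did not overlap either, and the difference was -0.52 (SE 0.27, limma adjusted p = 0.623), with the same -0.52 at its second probe.

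Fmo5, which inserts oxygen next to ketones, read 7.06, 6.71 and 6.46 on the control arrays and 6.61, 6.48 and 7.11 on the DECB arrays. The groups overlapped fully, with a difference of -0.01 (SE 0.32), and its other probes were at 0.39 and 0.41. Fmo4 read -3.55, -2.68 and -2.69 against -2.77, -3.26 and -2.93, with a difference of -0.01 (SE 0.35) that was 0.62 within scan group 1 and 0.22 blocked, and it was well above background on 2 arrays of each group. Fmo6 and Fmo9 did not pass the filter: Fmo6 was well above background on 2 DECB arrays and no control array, and Fmo9 on none. Fmo4, Fmo1, Fmo2 and Fmo6 follow one another in this order on chromosome 1 in the RefSeq annotation of GRCm38.p6, and the tested ones differed by -0.01, -0.52 and -1.85.

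Many drug-metabolising genes of adult mouse liver differ between the sexes, so lists of sex-biased genes were read beside the members. Of 10 tested female-biased genes, 3 fell, 0 rose and all 10 lay below 0, with a median of -2.44 (all genes, -0.03; 0.257% called lower); Sult2a1 and A1bg did not pass the filter. They were Cux2, a transcription factor of female liver, at least 9.63-fold lower, Hao2, a peroxisomal oxidase, at least 5.91-fold lower, and Hamp2, of the hepcidin family, with a difference of -2.66 (SE 0.35; limma adjusted p = 0.0265, 0.0352 and 0.0386). With the scan group as a block, 5 were called lower (3.94% of all genes were): these 3, Cyp2b13 and Acot3. The bounds for Cux2 and Hao2 stand because neither was well above background on any DECB array. They set the control mean against the mean over the DECB arrays of, per array, the higher of the gene's own signal and the lowest signal well above background. Cux2 and Hao2 thus passed the filter through the control arrays alone, which favoured a lower reading in advance. Of 11 tested male-biased genes, 0 were called and 1 lay below 0, with a median of 0.37. C6, of the complement system, and Hsd3b5, a steroid dehydrogenase, differed by 2.14 (SE 0.40) and 4.31 (SE 0.99), with limma adjusted p of 0.0911 and 0.149. Hsd3b5 was well above background on 1 control array and 3 DECB arrays, so the size of its difference rests on dim control signals. With the scan group as a block, 2 were called higher (2.74% of all genes were), C6 and the major urinary protein gene Mup20 (limma adjusted p = 0.0185 and 0.0385). Ddx3y and Eif2s3y, which lie on the Y chromosome, exceeded background on each of the 6 arrays. Xist, made by the inactive X chromosome, did so on 1 array, DECB 5, at 1 of its 2 probes. These 3 genes were chosen after their values were seen. The lists of sex-biased genes were drawn up with results of these arrays known and are no independent evidence.

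Carboxylesterases lay below 0 for 13 of 16 tested members (median -0.66), and 0 were called (limma; 1, Ces1g, was called with the scan group as a block). Ces1g, an esterase that acts on triglyceride and cholesteryl ester, read 3.75, 3.53 and 3.89 on the control arrays and 1.89, 2.07 and 2.60 on the DECB arrays. The groups were well apart, and DECB 6 was the highest of its group. The level was 3.72 ± 0.18 in control and 2.19 ± 0.37 in DECB (SD, n = 3), a difference of -1.53 (SE 0.30, limma adjusted p = 0.102; blocked -1.53, adjusted p = 0.0376) or 2.90-fold. It differed by -1.15 within scan group 1 and -1.82 within scan group 2.

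All 7 tested Ces1 genes lay below 0 (median -0.77). Ces1e read 4.09, 3.39 and 3.85 on the control arrays and 2.70, 2.57 and 3.07 on the DECB arrays, with a difference of -0.99 (SE 0.31, limma adjusted p = 0.316). Ces1f read 3.69, 4.66 and 4.81 against 3.54, 3.60 and 3.0, with a difference of -1.01 (SE 0.39, limma adjusted p = 0.445). Neither gene overlapped between groups, though Ces1f of control 1 lay close to DECB 5. Ces1d, a triglyceride hydrolase of the hepatocyte endoplasmic reticulum, differed by -0.64 (SE 0.43), and Ces1a and Ces1b by -0.77 (SE 0.53) and -0.39 (SE 0.42), all with overlap. Ces1c, the esterase of mouse plasma, differed by -0.11 (SE 0.33).

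The Ces2 genes all lay below 0 as well (5 tested, median -0.68). Ces2e read 5.54, 5.34 and 5.42 on the control arrays and 4.83, 4.45 and 5.02 on the DECB arrays, without overlap, and differed by -0.67 (SE 0.28, limma adjusted p = 0.492). Its dimmer probe differed by -1.21. Ces2g had no overlap and differed by -0.81 (SE 0.35), while Ces2a and Ces2c overlapped and differed by -0.68 (SE 0.56) and -0.86 (SE 0.54). The 3 probes of Ces2c did not move alike, since the dimmer ones both differed by -0.14. Ces2b differed by -0.06 (SE 0.54), and Ces2f was well above background on 1 array.

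Ces3b and Ces4a were, with Ces3a, the carboxylesterases above 0. They differed by 0.64 (SE 0.47) and 0.69 (SE 0.43), Ces3a by 0.10 (SE 0.26) and Ces5a by -0.17 (SE 0.49). All 4 overlapped between groups. Ces4a and Ces5a were dim, each well above background on 2 arrays of each group. Ces1, Ces2 and Akr1c genes are close paralogs, and binding of one gene's RNA to another's probe was not tested.

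**Figure D3:**
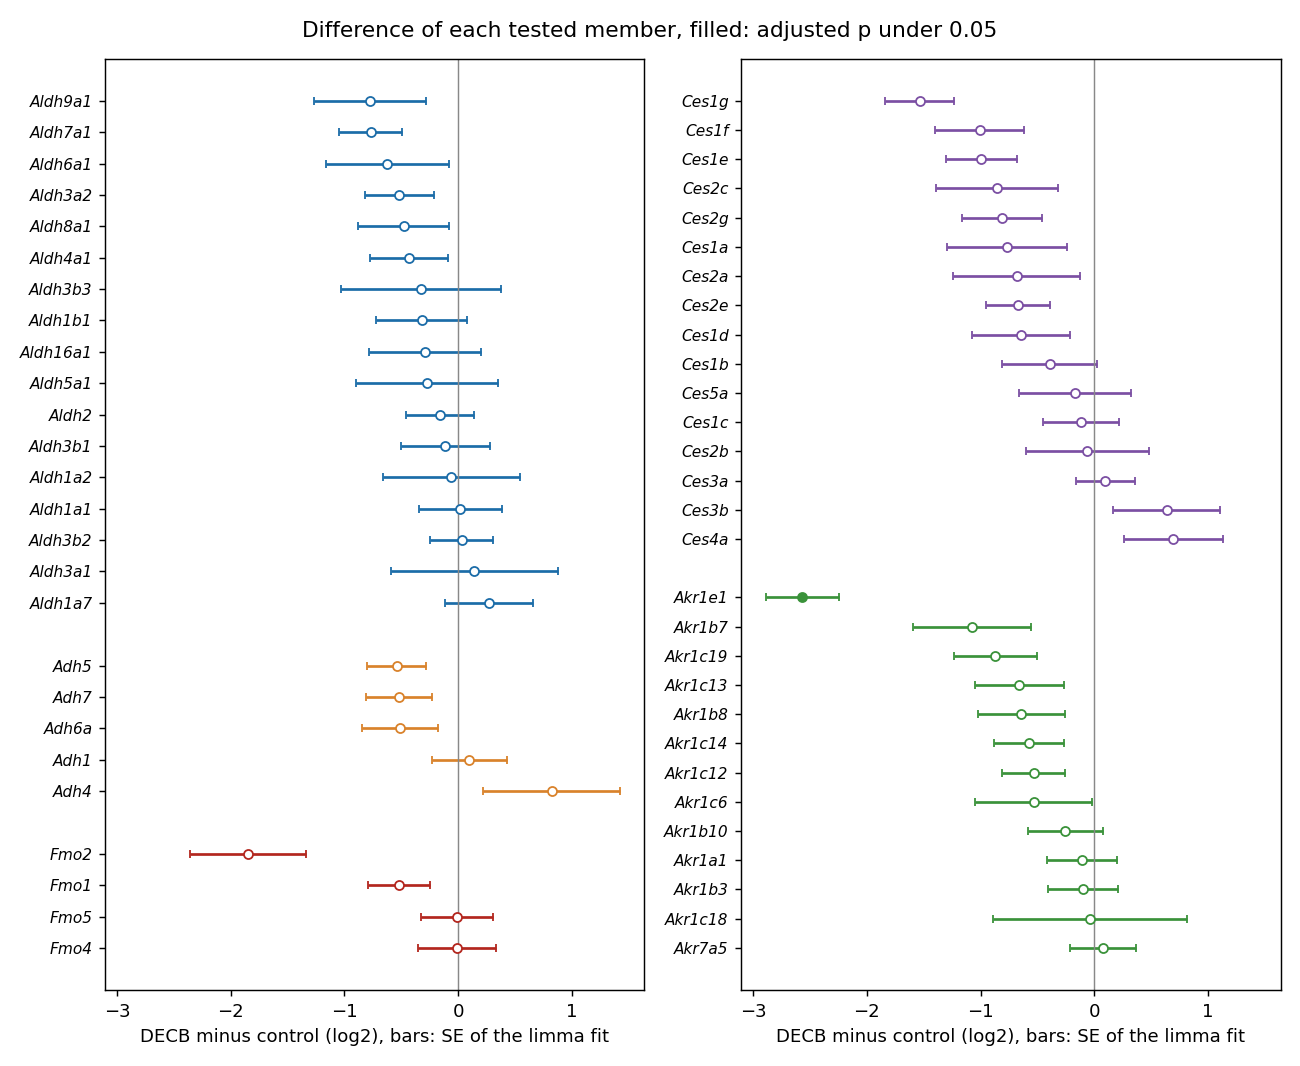
Difference of each of the 55 tested members (DECB minus control, log2, x axis) by family, with the SE of the limma fit as bars and filled symbols for members called. Akr1e1 is filled, and no member differed by as much as 1 log2 unit upward.

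Among the aldehyde dehydrogenases, 13 of 17 tested members lay below 0, the median was -0.29, and 0 were called (limma; 0 also with the scan group as a block). Of the enzymes of amino acid breakdown and carnitine synthesis, 6 of 6 tested lay below 0 (median -0.55). Aldh7a1, of lysine breakdown, read 6.19, 5.98 and 5.96 on the control arrays and 5.04, 5.24 and 5.54 on the DECB arrays. Its groups did not overlap, and it differed by -0.77 (SE 0.28, limma adjusted p = 0.4). A dim second probe of Aldh7a1, for another transcript, differed by 0.53, and the mean of both probes by -0.12. Aldh9a1, which serves carnitine synthesis, read 5.31, 4.33 and 4.36 against 3.31, 3.55 and 4.82. DECB 6 lay within the control range, and the difference was -0.78 (SE 0.49, limma adjusted p = 0.737). Leaving out control 1 or DECB 4 gave -0.46 or -0.49, and leaving out DECB 6 gave -1.24.

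Aldh4a1, of proline breakdown, read 7.06, 6.70 and 6.74 on the control arrays and 6.11, 6.12 and 6.98 on the DECB arrays, a difference of -0.43 (SE 0.34, limma adjusted p = 0.827). Here too DECB 6 lay within the control range, and the difference was -0.29 without DECB 4, -0.72 without DECB 6 and -0.21 with quantile normalization. Aldh6a1, of valine breakdown, Aldh8a1, of tryptophan breakdown, and Aldh5a1, which oxidises succinic semialdehyde, differed by -0.62 (SE 0.54), -0.48 (SE 0.40) and -0.27 (SE 0.63). Aldh18a1, of proline synthesis, was well above background on 1 array and was not tested.

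Of the enzymes of fatty aldehydes, Aldh3a2 read 1.20, 0.76 and 0.75 on the control arrays and 0.08, 0.70 and 0.37 on the DECB arrays. The groups did not overlap, though DECB 5 was close to the controls, and the difference was -0.52 (SE 0.30, limma adjusted p = 0.691; blocked -0.74, adjusted p = 0.0587). Aldh3a1, Aldh3b1, Aldh3b2 and Aldh3b3 differed by 0.14 (SE 0.73), -0.11 (SE 0.39), 0.03 (SE 0.28) and -0.33 (SE 0.71). A dim second probe of Aldh3a1 differed by -0.64. For Aldh3a1 and Aldh3b3 both scan group 1 arrays lay below the other 4, a split larger than that between control and DECB.

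The enzymes of acetaldehyde had a median of -0.24 and those of retinaldehyde 0.02. Aldh2, the mitochondrial enzyme that clears acetaldehyde, differed by -0.16 (SE 0.30), and Aldh1b1 by -0.32 (SE 0.40). Aldh1a1, which makes retinoic acid, differed by 0.02 (SE 0.37), its close relative Aldh1a7 by 0.27 (SE 0.39) and Aldh1a2 by -0.06 (SE 0.60). Aldh1a3 was well above background on 2 control arrays and no DECB array and was not tested. Aldh16a1 differed by -0.29 (SE 0.49). With SE of 0.30 to 0.60 log2 units, differences of that size could not be told from 0 in either direction.

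The alcohol dehydrogenases were divided. Adh1, the main ethanol- and retinol-oxidising enzyme of mouse liver, differed by 0.10 (SE 0.33). Adh4, which also oxidises retinol, read 3.07, 1.97 and 2.34 on the control arrays and 2.3, 3.03 and 4.51 on the DECB arrays. It had the largest difference above 0 of all members, 0.82 (SE 0.60, limma adjusted p = 0.796), but the groups overlapped and DECB 6 stood above all other arrays. The difference was 1.45 within scan group 1 and 0.14 within scan group 2. Without DECB 6 it was 0.21.

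Adh5, which clears formaldehyde as its glutathione adduct, read -1.60, -1.34 and -1.39 against -1.85, -2.03 and -2.07. Its groups did not overlap, and the difference was -0.54 (SE 0.26, limma adjusted p = 0.577). Adh7, best known from stomach, read -2.54, -2.17 and -2.57 against -2.73, -3.23 and -2.88, and differed by -0.52 (SE 0.29, limma adjusted p = 0.661). Adh6a read -4.23, -3.48 and -3.52 against -4.37, -3.92 and -4.47, and differed by -0.51 (SE 0.33, limma adjusted p = 0.746). Adh7 and Adh6a were dim: each was well above background on 2 control arrays, with 2 and 1 DECB arrays. The sign of the family's median rests on them, since it was 0.10 over the 3 Adh genes measured well above background throughout (Adh1, Adh4 and Adh5).

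Across the 2 scan groups that hold both treatments, 33 of 55 members lay below 0 in both and 9 above 0 in both. How many of all genes did so in both was not counted. Within scan group 1 alone, 42 members and 7928 of 14802 genes lay below 0. Within scan group 2 alone, 37 members and 8032 of 14765 genes did. The median over the members was -0.42 within scan group 1 and -0.38 within scan group 2 (all genes, -0.05 and -0.06), and -0.37 blocked. Without scan group 1 it was -0.39, with 0 members called, against 46 genes called lower and 32 higher of 14804 (limma; 25 members and 3416 genes at an unadjusted p under 0.05).

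**Figure D4:**
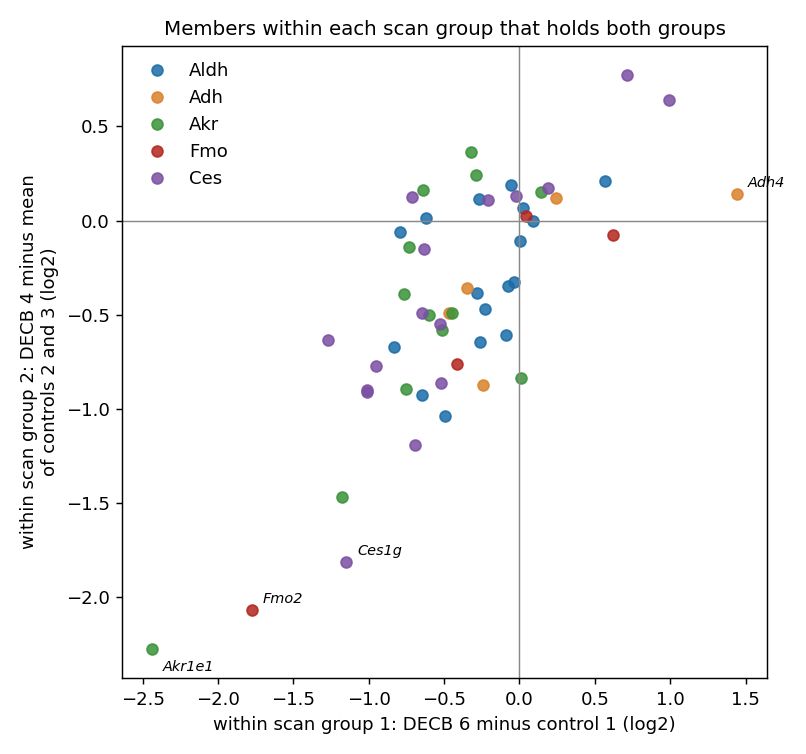
Difference of each member within scan group 1 (DECB 6 minus control 1, x axis) and within scan group 2 (DECB 4 minus the mean of controls 2 and 3, y axis), in log2 units, coloured by family. On each axis a point rests on 1 DECB array, set against 1 control on the x axis and 2 on the y axis, and has no error. Akr1e1 lies at -2.44 and -2.28, and Adh4 at 1.45 and 0.14.

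Other enzymes that act on carbonyls, esters and epoxides, and the reductase that feeds cytochromes P450, were described from a separate list. Of 20 tested, 0 were called and 17 lay below 0, with a median of -0.53; 2, Por and the epoxide hydrolase Ephx2, were called lower with the scan group as a block. Por, the electron donor of microsomal P450 enzymes, read 7.28, 7.71 and 7.44 on the control arrays and 5.37, 5.99 and 5.71 on the DECB arrays, a difference of -1.78 (SE 0.30, limma adjusted p = 0.0679; blocked 0.0253). Nqo1, a quinone reductase, differed by -1.08 (SE 0.36, limma adjusted p = 0.35). The groups did not overlap for either gene, but Nqo1 was dim, well above background on 2 arrays of each group.

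Of 18 tested genes of retinoid handling, which work before and after the retinaldehyde dehydrogenases, 0 were called and 11 lay below 0 (median -0.28); with the scan group as a block, Cyp26a1 was called higher and Dhrs3, which reduces retinaldehyde, lower. Cyp26a1, which degrades retinoic acid, read 2.12, 1.22 and 0.99 on the control arrays and 3.24, 2.85 and 4.19 on the DECB arrays, a difference of 1.98 (SE 0.47, limma adjusted p = 0.155; blocked 0.0176). Rdh16, a retinol dehydrogenase, read 1.70, 2.48 and 3.41 against 0.32, 1.12 and 0.62, a difference of -1.84 (SE 0.48, limma adjusted p = 0.204). Dhrs3 differed by -0.93 (SE 0.29, limma adjusted p = 0.295; blocked 0.0491). Cyp26a1 was thus above and Rdh16 below its controls on every DECB array. Of 11 tested regulators of drug-metabolising genes, 0 were called and 8 lay below 0 (median -0.31). Ppara, the receptor of fatty acid signals, differed by -1.66 (SE 0.28, limma adjusted p = 0.0679; blocked 0.0215) and Nr1i3, the receptor CAR, by -1.35 (SE 0.65, limma adjusted p = 0.582).

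Markers of other cell types were read in the same fit, and 0 were called, against 0.466% of all genes. With the scan group as a block, 1 endothelial and 1 lymphocyte marker were called lower and 2 neutrophil markers higher. In that fit 3.94% of all genes were called lower and 2.74% higher. Of 5 tested red cell markers, 4 lay below 0: Hba-a1 by -1.73, Hbb-bt by -2.29, Epor by -0.74 and Slc4a1 by -0.13. Alas2 went the other way, by 0.88. The 5 markers' summed signal was 65.6 to 99.0 times the array's 75th percentile on control arrays and 16.6 to 42.0 times on DECB arrays. The 5 tested cholangiocyte markers all lay above 0 (median 0.76), with summed signals of 1.31 to 7.65 and 2.51 to 32.3 times the 75th percentile, and Krt7 and Epcam did not pass the filter. Summed signals of Kupffer cell (21.9 to 29.9 and 22.3 to 24.4), endothelial (21.8 to 40.0 and 15.7 to 31.8), stellate cell (30.8 to 56.3 and 19.7 to 42.7) and lymphocyte markers (6.84 to 9.68 and 4.32 to 7.58) overlapped between control and DECB. Those of the 3 tested neutrophil markers were 73.8 to 101 and 59.6 to 64.9, without overlap, but nearly all of that sum was Csf3r. Csf3r differed by -0.55 (limma adjusted p = 0.593), while the dimmer S100a8 and S100a9 went the other way, each by 1.57. Mean log2 levels in control and DECB were 6.46 and 5.91 for Csf3r, -2.60 and -1.03 for S100a8, and -0.88 and 0.69 for S100a9. Summed signals were 0.189 to 0.245 and 0.204 to 0.416 for adipocyte markers (Adipoq, Lep, Cfd and Plin1 did not pass the filter), 3.67 to 12.0 and 3.73 to 11.6 for pancreas, 23.9 to 37.3 and 12.4 to 23.02 for intestine, where Fabp2 alone was tested and differed by -0.72, and 0.400 to 0.615 and 0.483 to 1.75 for kidney. The wide ranges for pancreas and cholangiocytes followed 1 gene each, which split by scan group. Amy2a5 of pancreas read 0.52 on control 1 and 0.27 on DECB 6, against 2.62 to 3.38 on the other arrays. Cftr of cholangiocytes read -1.74 and -0.27 there, against 2.73 to 4.96 on the other arrays. In bulk tissue, fewer cells of a type and less RNA per cell cannot be told apart, and the part of these markers in the members' differences was not tested.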

How the data were processed

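Each deposited array file is the output of 1 Agilent 1-colour array (Cy3) from Agilent Feature Extraction 11.0.1.1, per the file headers. The deposited intensity values used had been background-subtracted and spatially detrended within the array, per the file headers, and arrays had not been scaled to each other. Raw median intensities of spot and background, also as deposited, served normexp. A value table on a log2 scale, deposited by the authors with no stated method, was not used in any comparison: its columns had the same median (5.34), their Pearson correlation across probes with their own array's log2 signal was 0.672 to 0.694, and 5 of 6 correlated best with another array. How its values were derived stays unknown, as does the match of its columns to the arrays.

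Processed signals were divided by their array's 75th percentile over 43020 non-control spots and put on a log2 scale. Spots that are controls (1377) or carry an outlier mark (164 to 322 per array) were removed, none was saturated, and spots of a probe were averaged. Accessions, without versions, were matched to RefSeq (GRCm38.p6): 27234 of 28684 probes with a RefSeq accession were named, and 12195 of 39429 probes were not. The array design is annotated on mm9, per the file headers, so RefSeq coordinates are given for promoters alone. The filter kept 25418 probes that exceeded background on 3 or more of the 6 arrays, and a gene was read from its brightest kept probe; of 10 tested members with more than 1 kept probe, 4 had a probe of opposite sign.

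Differences were tested with limma 3.58.1 in R 4.3.3 (lmFit, eBayes, two-sided, all 6 arrays, no covariate), with Benjamini-Hochberg adjustment over all genes; the code was tested on simulated data. With 3 arrays a group, the number of arrays limits the precision. Values on every array are given for members called, called with the scan group as a block, or among the 4 smallest p of a family; of each context list, called genes and the 2 smallest p are named; other context and marker genes were named after their values were seen. Of 63 genes that meet the symbol rule, 1 is not reported here. The symbol rule, lists and tests were set with earlier results of these data known. Alternatives changed 1 choice at a time, except normexp, which also starts from raw median signals.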

Additional observations from a re-analysis of the deposited data

How the results depend on the processing

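No paired analysis was possible because the sample titles share no replicate number between the groups; arrays were matched by scan group instead. Akr1e1, the member called, stayed below 0 under all alternatives run. Member calls (1 lower) became 5 with the scan group as a block and 0 with normexp (run on median signals, a choice made after seeing the files), with quantile normalization, without scan group 1, with no filter on dim probes and with controls 2 and 3 averaged to 1 sample (9, 6, 25, 5 and 4 of the 55 at an unadjusted p under 0.05, limma, against 1200, 1424, 3416, 1257 and 883 of all genes). With 1 array left out they ranged from 0 to 0 (4 to 13 at an unadjusted p under 0.05). Higher member calls were 0 throughout. Calls over all genes (38 lower, 31 higher) became 22 and 15 with quantile normalization, 583 and 405 with the scan group as a block, 0 and 0 with no filter (1257 at an unadjusted p under 0.05) and 2 and 0 with controls 2 and 3 averaged (883). With 1 array left out they ranged from 0 to 35 and from 0 to 18 (853 to 2119 at an unadjusted p under 0.05). With no filter more genes are tested, and averaging leaves fewer samples; the cause of the other shifts was not tested. With no filter and with averaged controls the limma adjusted p of Akr1e1 was 0.137 and 0.216. Fmo5, at -0.01, turned to 0.21 with quantile normalization, 0.26 with the mean of its probes, 0.0315 with the scan group as a block and 0.0446 and 0.0216 within scan groups 1 and 2, and ran from -0.20 to 0.15 with 1 array left out. Fmo4, at -0.01, turned to 0.221 with the scan group as a block, 0.135 with averaged controls and 0.62 within scan group 1, and ran from -0.30 to 0.14 with 1 array left out. With normexp the differences of the dim Adh5, Adh6a and Adh7 were -0.30, -0.15 and -0.26, and that of Aldh3a2 was -0.31. No member was well above background on all arrays of 1 group and none of the other, so no bound was computed. On scan group 1 the 75th percentile signal was 3.75 and 4.04 times the local background, against 25.0 to 30.6 times on the other arrays, which limits the dim members there: 8 of 55 were not well above background on either of its arrays.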
